A study of Rattus norvegicus with 18 samples.

Results

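Cholesterol in the brain is made locally, and 30 genes of its synthesis, sensing, transport and turnover were followed in rat hippocampus RNA from a pair of epilepsy models. The genes were taken by symbol from a list grouped by role, out of 17455 gene symbols in the count table. All 30 were in the table, and all 30 were expressed highly enough to be tested, along with 13338 genes in all. By role, the list holds 8 genes of the mevalonate arm, 3 that lead from farnesyl diphosphate to lanosterol, 8 that turn lanosterol into cholesterol, 6 of sterol sensing and intracellular sterol transport, and 5 of export, liver X receptor signalling and turnover.

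The blood-brain barrier keeps circulating lipoprotein cholesterol out of the brain, so neurons and glia depend on their own synthesis, and myelin holds most of the brain's cholesterol. When sterol in the endoplasmic reticulum falls, the carrier protein Scap escorts the precursors of the transcription factors SREBP-1 and SREBP-2 (genes Srebf1 and Srebf2) to the Golgi, where they are cut and released, and they then switch on synthesis genes. When sterol is plentiful, Insig1 and Insig2 hold Scap back. Oxidised sterols bind the liver X receptors (Nr1h2 and Nr1h3), which induce the efflux pumps Abca1 and Abcg1 and also Srebf1, while Cyp46a1 hydroxylates cholesterol in neurons so that it can leave the brain.

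Adult male Sprague-Dawley rats were used, and polyadenylated RNA of the left hippocampus, dissected 24 h after the last seizure, was sequenced. In the KA model, electrodes were implanted and systemic kainic acid, a drug that activates kainate-type glutamate receptors, was injected in increments to bring on status epilepticus; its groups are KA 3 Class V (n = 3) and KA sham (n = 7). In the KI model, rats were stimulated electrically in the hippocampus, 2 times a day, until fully kindled; its groups are KI 3 Class V (n = 4) and KI sham (n = 4). The sources used here do not explain the name 3 Class V further, nor what the sham rats received, nor do they state that every library is a separate animal; p-values then measure the spread between these libraries, which may be partly technical.

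The regulatory windows below show the kind of sequence in front of these genes: Hmgcs1, Sc5d and Hsd17b7 are members that rose in KI, and Srebf2 and Msmo1 are the members with an exact copy of the sterol response element core searched for. Each window runs from 250 bases before to 50 after the annotated start in RefSeq's table for the assembly GRCr8, printed 5′ to 3′ on the gene's strand. Capitals mark the pentamer CCAAT in either orientation and the 8-letter core TCACNCCA. The windows lie at chr2:53382054-53382353 on the plus strand, chr8:51538228-51538527 on the minus strand, chr13:84722705-84723004 on the minus strand, chr7:115543057-115543356 on the plus strand and chr16:29746863-29747162 on the plus strand.
Hmgcs1: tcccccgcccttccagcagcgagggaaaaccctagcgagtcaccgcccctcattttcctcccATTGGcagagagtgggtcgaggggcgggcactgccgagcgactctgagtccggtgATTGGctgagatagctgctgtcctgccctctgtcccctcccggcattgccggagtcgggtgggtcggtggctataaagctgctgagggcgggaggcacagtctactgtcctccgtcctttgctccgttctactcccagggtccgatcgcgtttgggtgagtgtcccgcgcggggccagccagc
Sc5d: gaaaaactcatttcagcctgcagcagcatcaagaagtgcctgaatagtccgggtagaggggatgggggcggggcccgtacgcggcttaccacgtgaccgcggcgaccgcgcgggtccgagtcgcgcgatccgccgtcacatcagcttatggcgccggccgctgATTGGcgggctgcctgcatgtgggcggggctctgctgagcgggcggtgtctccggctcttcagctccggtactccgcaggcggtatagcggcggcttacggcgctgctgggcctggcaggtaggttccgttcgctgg
Hsd17b7: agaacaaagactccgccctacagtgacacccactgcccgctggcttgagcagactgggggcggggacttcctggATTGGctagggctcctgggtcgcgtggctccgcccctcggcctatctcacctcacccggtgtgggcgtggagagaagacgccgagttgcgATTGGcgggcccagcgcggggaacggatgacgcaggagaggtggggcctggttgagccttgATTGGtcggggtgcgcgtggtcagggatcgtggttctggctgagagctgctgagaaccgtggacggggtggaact
Srebf2: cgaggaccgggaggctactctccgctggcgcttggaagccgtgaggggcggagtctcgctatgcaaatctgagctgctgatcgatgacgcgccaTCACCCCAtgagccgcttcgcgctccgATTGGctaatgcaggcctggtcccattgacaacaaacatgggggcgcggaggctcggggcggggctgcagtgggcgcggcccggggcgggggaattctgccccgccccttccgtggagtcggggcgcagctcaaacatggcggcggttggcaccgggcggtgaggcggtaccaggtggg
Msmo1: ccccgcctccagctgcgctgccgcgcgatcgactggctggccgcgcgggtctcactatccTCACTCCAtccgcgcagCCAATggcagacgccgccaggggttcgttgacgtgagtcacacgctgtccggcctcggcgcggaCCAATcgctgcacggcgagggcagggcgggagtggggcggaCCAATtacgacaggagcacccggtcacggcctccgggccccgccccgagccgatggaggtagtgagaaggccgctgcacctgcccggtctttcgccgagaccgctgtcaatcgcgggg

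Windows were found for 25 of the 30 members; Pmvk, Fdft1, Sqle, Stard4 and Abcg1 had none in the table. The CCAAT pentamer, bound by the factor NF-Y, which works beside SREBP at many sterol genes, stood in 18 of 25 member windows (72%), against 37.1% of the windows of all genes tested and 37.7% of all windows in the table. The sterol response element core TCACNCCA, searched on both strands, stood in 2 of 25 (8%), against 3.45% and 3.91%. The E-box CACGTG, which SREBP can also bind and which is the same on both strands, stood in 4 windows (16%; Sc5d, Scap, Insig1 and Abca1), against 9% and 6.65%. The GC box GGGCGG, bound by Sp1 family factors, stood in 19 windows (76%), against 60% of the windows of genes tested and 34.9% of all windows. In the windows of the members, 0 pairs of matches of different motifs overlapped. A match is a run of letters and not a shown binding site, and a window without one says only that these letters are not in it.

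Total counts ran from 30925368 to 49943021 per library. Levels are given as CPM, counts scaled to a common library size with TMM factors, and they are compared between libraries for 1 gene at a time. The least counted member, Hsd17b7, had 65 to 152 reads per library, and the next, Nr1h3, had 135 to 380. Neuronal markers were well expressed in every library (summed level of 6 genes 2835 to 4661 CPM), and so were astrocyte markers (7 genes, 3256 to 4830 CPM). Some libraries stood apart. KI sham 1 was far below the rest in Map2, a neuronal cytoskeletal gene (91.5 CPM, against 619 to 1451 CPM in the other libraries), and in Slc1a2, the astrocyte glutamate transporter (68.5 CPM, against 258 to 609 CPM). KI sham 4 and KA sham 3 carried choroid plexus markers (summed level of 5 genes 959 and 613 CPM, against 9.44 to 71.8 CPM elsewhere), and reads on ribosomal RNA-like genes took 16.3% of KI 3 Class V 1, 16.4% of KI sham 2 and 9.67% of KA sham 4, against 0.571% to 2.0005% in the rest.

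In kindled hippocampi, 3 enzymes of cholesterol synthesis (Hmgcs1, Hsd17b7 and Sc5d) and the sterol carrier Stard4 rose in KI 3 Class V against KI sham, and 0 members were called lower by the main test, with 3 lower at an unadjusted p under 0.05. The 4 make up 13.3% of the members, beside 4.74% of all genes tested that rose and 5.25% that fell at an adjusted p under 0.05 (edgeR's quasi-likelihood test, p adjusted by Benjamini-Hochberg over all genes tested). DESeq2 called 6 members higher and 2 lower (beside 11.7% and 10.5% of all genes), and limma-voom 13 higher and 4 lower (beside 27.1% and 28.03%). The lower ones were Nr1h2 and Nr1h3 by DESeq2, and these with Ebp and Mvk by limma-voom. The background itself rests on single libraries: 9 genes in all were called in KI without KI 3 Class V 1, and 4297 without KI sham 4, against 1332 with all libraries. Of the 30 members, 20 had a positive log2 change and 10 a negative one, with a median of 0.21, against a median of −0.04 over all genes tested. The changes were modest, from −0.57 (Nr1h3) to 0.73 (Stard4) on the log2 scale. In 7 members every KI 3 Class V library lay above every KI sham (23.3%, beside 12.1% of all genes), namely Hmgcs1, Fdft1, Hsd17b7, Sc5d, Srebf2, Insig1 and Stard4. In 2 members, Nr1h2 and Nr1h3, every KI 3 Class V library lay below (6.67%, beside 8.07% of all genes).

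**Figure D1:**
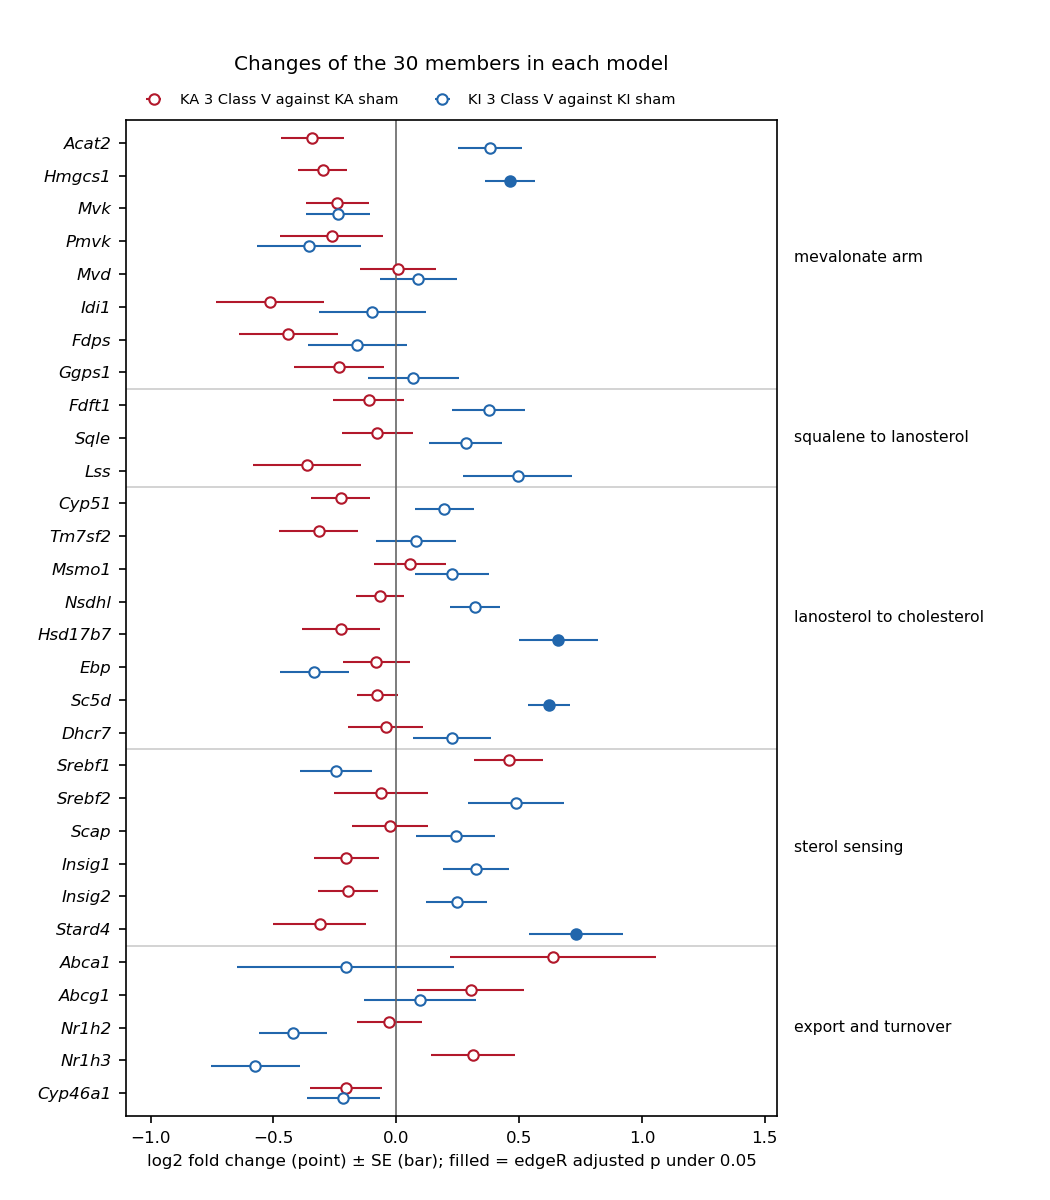
Log2 fold change (x axis, point) with its standard error (bar) for each of the 30 members (y axis, by role), for KA 3 Class V against KA sham in red and KI 3 Class V against KI sham in blue, with filled points for edgeR adjusted p under 0.05. The 4 filled points are all in KI and all positive, and 24 of the 30 KA points lie left of 0.

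Sc5d, the sterol desaturase that acts just before the final reduction to cholesterol, showed the clearest separation in KI. It stood at 89.9, 86.9, 82.8 and 82.3 CPM in KI 3 Class V, against 51.1, 58.9, 56.5 and 55.9 CPM in KI sham. The lowest kindled library thus lay well above the highest sham, and the replicates of each group were close together. The log2 change was 0.62 ± 0.09 (SE; edgeR adjusted p = 0.00330; means 85.5 ± 3.6 and 55.6 ± 3.2 CPM, SD, n = 4 each). Hsd17b7, the keto-reductase of sterol demethylation, stood at 4.16, 3.68, 4.28 and 3.47 CPM in KI 3 Class V, against 2.25, 2.65, 1.97 and 3.00 CPM in KI sham. The groups did not overlap, and the log2 change was 0.66 ± 0.16 (edgeR adjusted p = 0.0304).

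The other 6 genes between lanosterol and cholesterol did not pass the test. Nsdhl, another enzyme of sterol demethylation, came nearest, at 0.32 ± 0.10 (edgeR adjusted p = 0.0517). Cyp51, the lanosterol demethylase, was at 0.20 ± 0.12 (0.243), Msmo1, the sterol methyl oxidase, at 0.23 ± 0.15 (0.270), Dhcr7, the reductase of the final step, at 0.23 ± 0.16 (0.300) and Tm7sf2, a sterol reductase, at 0.08 ± 0.16 (0.731), as log2 changes with edgeR adjusted p in parentheses. Ebp, the sterol isomerase, had a negative log2 change of −0.33 ± 0.14 (edgeR adjusted p = 0.107). The median of this role group was 0.23, with 7 of 8 members positive.

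Hmgcs1, which makes the HMG-CoA that feeds mevalonate synthesis, was the member of the early pathway that rose in KI. It stood at 360.1, 419, 377 and 357 CPM in KI 3 Class V, against 274, 301.0, 254 and 269 CPM in KI sham. The groups were separated, and the log2 change was 0.46 ± 0.10 (edgeR adjusted p = 0.0263). Acat2, the cytosolic thiolase at the step before it, stood at 38.1, 33.4, 41.8 and 38.4 CPM in KI 3 Class V, against 22.7, 35.6, 30.01 and 28.1 CPM in KI sham. Here KI sham 2 overlapped the kindled libraries, and the log2 change of 0.38 ± 0.13 did not pass (edgeR adjusted p = 0.0623).

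The rest of the mevalonate arm did not pass the test. The kinases Mvk and Pmvk had log2 changes of −0.24 ± 0.13 and −0.35 ± 0.21 (edgeR adjusted p = 0.194 and 0.230), the isomerase Idi1 −0.10 ± 0.22 (0.763), farnesyl diphosphate synthase Fdps −0.16 ± 0.20 (0.574), the decarboxylase Mvd 0.09 ± 0.16 (0.691) and geranylgeranyl diphosphate synthase Ggps1 0.07 ± 0.19 (0.801). The median log2 change of the 8 genes was −0.01, with 4 positive and 4 negative. The spread of the shams was wide here. Pmvk, for example, stood at 33.01, 42.2, 38.4 and 39.1 CPM in KI 3 Class V, against 77.3, 45.8, 42.2 and 30.2 CPM in KI sham, where the highest and lowest of all 18 libraries were KI sham 1 and KI sham 4.

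The 3 genes that commit farnesyl diphosphate to sterols and close the ring all had positive log2 changes in KI, and none passed the test. Fdft1, squalene synthase, stood at 113, 117, 111 and 106 CPM in KI 3 Class V, against 104, 95.1, 69.9 and 75.7 CPM in KI sham. The groups did not overlap, though KI sham 1 lay close to the nearest kindled library, and the log2 change was 0.38 ± 0.15 (edgeR adjusted p = 0.0882). Lss, lanosterol synthase, stood at 60.2, 59.5, 60.2 and 40.1 CPM in KI 3 Class V, against 23.9, 50.4, 37.7 and 44.0 CPM in KI sham, so that KI 3 Class V 4 fell among the shams (log2 change 0.49 ± 0.22, edgeR adjusted p = 0.123). Sqle, squalene epoxidase, had a log2 change of 0.28 ± 0.15 (edgeR adjusted p = 0.176).

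Among the sensing and transport genes, Stard4, a soluble carrier that moves sterol between membranes, rose in KI. It stood at 18.4, 19.6, 19.3 and 20.2 CPM in KI 3 Class V, against 7.19, 13.1, 12.7 and 13.7 CPM in KI sham. The kindled libraries were tightly grouped and all above the shams, of which KI sham 1 was far below the others. The log2 change was 0.73 ± 0.19 (edgeR adjusted p = 0.0339), and it was 0.56 without KI sham 1 (edgeR adjusted p = 0.0435).

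Srebf2, the master regulator of sterol synthesis genes, and Insig1, its sterol-dependent brake and also its target, were higher in every kindled library than in any sham without passing the test. Srebf2 stood at 389.7, 326, 385 and 319 CPM in KI 3 Class V, against 279, 248, 201 and 284 CPM in KI sham (log2 change 0.49 ± 0.20, edgeR adjusted p = 0.0941). Insig1 stood at 108, 117, 106 and 112 CPM in KI 3 Class V, against 91.6, 103, 85.7 and 72.9 CPM in KI sham (log2 change 0.33 ± 0.13, edgeR adjusted p = 0.0991). Scap and Insig2 had smaller positive log2 changes, of 0.24 ± 0.16 and 0.25 ± 0.13 (edgeR adjusted p = 0.272 and 0.164). Srebf1, whose main product drives fatty acid genes, went the other way. It stood at 132, 107, 128 and 141 CPM in KI 3 Class V, against 138, 156, 145 and 162 CPM in KI sham, with overlap at KI 3 Class V 4 (log2 change −0.25 ± 0.15, edgeR adjusted p = 0.224).

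The genes of export and turnover had a negative median log2 change in KI, −0.22, and 0 of 5 passed the main test, though Nr1h2 and Nr1h3 were both called lower by DESeq2, by limma-voom and with upper quartile factors. Nr1h3, liver X receptor alpha, stood at 4.25, 3.61, 4.11 and 3.78 CPM in KI 3 Class V, against 5.26, 5.23, 6.88 and 6.04 CPM in KI sham. The groups did not overlap, and the log2 change of −0.57 ± 0.18 lay just outside the threshold (edgeR adjusted p = 0.0507; 0.0176 by DESeq2, 0.00205 by limma-voom and 0.0408 with upper quartile factors, and 0.00205 to 0.237 over all alternatives). Its partner Nr1h2, liver X receptor beta, was at −0.42 ± 0.14 (edgeR adjusted p = 0.0553). Abca1, the cholesterol efflux pump, stood at 41.9, 36.9, 41.5 and 46.0 CPM in KI 3 Class V, against 8.72, 32.8, 44.2 and 106 CPM in KI sham. The shams thus spanned both ends of all 18 libraries, KI sham 1 the lowest and KI sham 4 the highest, and the log2 change of −0.21 ± 0.44 carries no direction (edgeR adjusted p = 0.749); it was 0.072 without those libraries. Cyp46a1 stood at 251, 223, 247 and 203 CPM in KI 3 Class V, against 366, 273, 229 and 205 CPM in KI sham, with overlapping groups (log2 change −0.22 ± 0.15, edgeR adjusted p = 0.294). That value turned on the shams: it was −0.029 without KI sham 1, −0.35 without KI sham 4, and −0.49 and past the test without KI sham 3 and KI sham 4 together (edgeR adjusted p = 0.0194; 0.0194 to 0.885 over all alternatives).

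**Figure D2:**
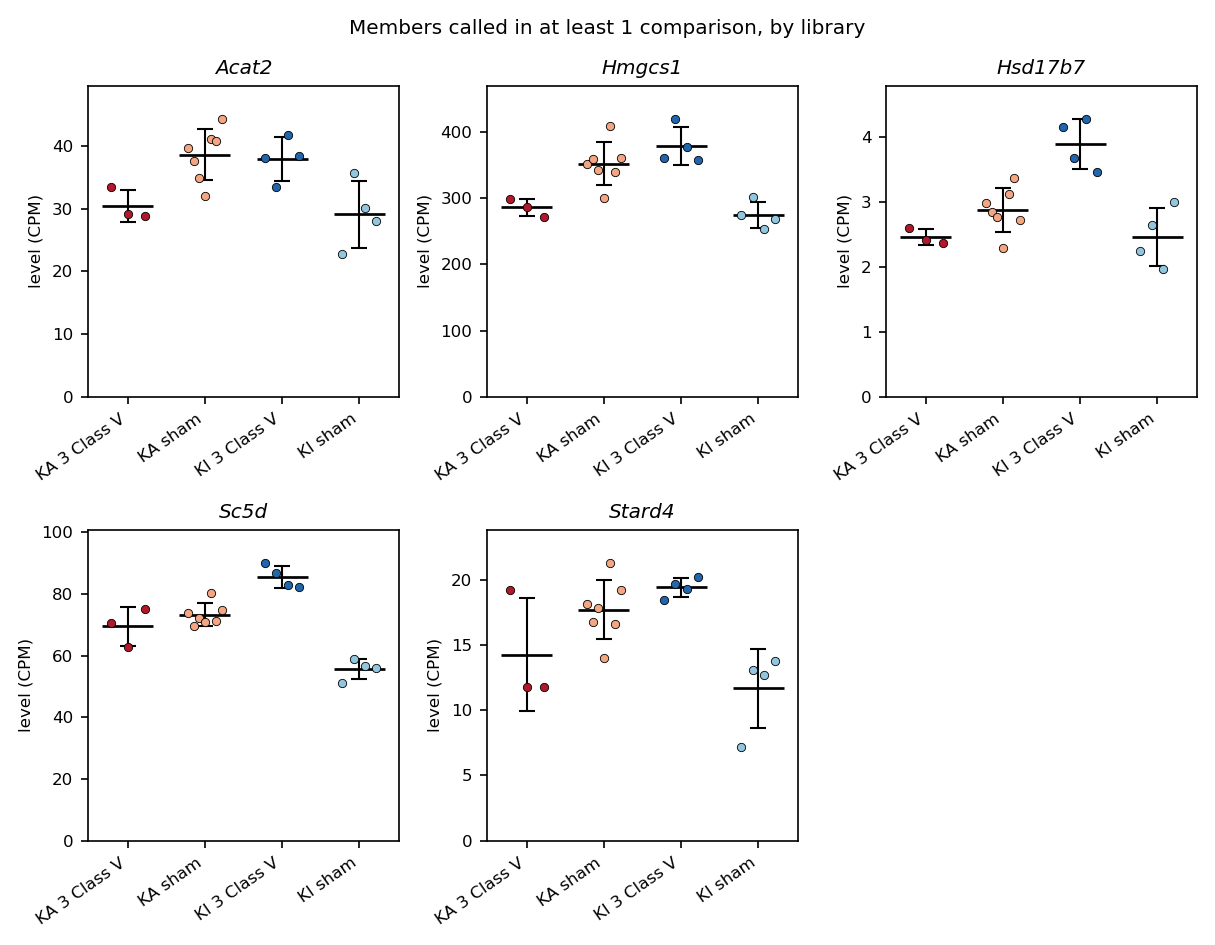
Level in CPM (y axis, from 0) of the 5 members past the test in at least 1 comparison, in each library (points), by group (x axis), with the mean (line) and SD (bar). Sc5d, Hmgcs1, Hsd17b7 and Stard4 lie above all KI shams in each KI 3 Class V library, while the KA 3 Class V libraries of Hmgcs1 lie below all KA shams.

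The KI counts rest on few libraries. Leaving out KI 3 Class V 1, 2 or 3, or KI sham 3, left Sc5d as the only member called (beside at most 0.368% of all genes higher). Without KI sham 1, 5 members were higher (Msmo1 was added), beside 2.65% of all genes. Without KI sham 4, the same 4 were higher and 5 were lower (Ebp, Mvk, Nr1h2, Nr1h3 and Pmvk). All genes were then called at 14.6% higher and 17.6% lower, so these counts are near the share of all genes. With KI sham 1 and KI sham 4 both left out, Hmgcs1, Hsd17b7 and Sc5d were higher (beside 7.99% of all genes) and Stard4 was not called (edgeR adjusted p = 0.0523). Without the 3 libraries rich in ribosomal RNA-like reads, Sc5d alone was called (log2 change 0.62, edgeR adjusted p = 0.0494), with Hmgcs1 at 0.53 (0.0713), Hsd17b7 at 0.66 (0.119) and Stard4 at 0.81 (0.119). With a covariate for the level of ribosomal protein genes, Sc5d was again the only one, at 0.59 (edgeR adjusted p = 0.00676).

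Cell type markers moved in the same comparison. Neuronal markers summed to 4208 to 4661 CPM in KI 3 Class V, against 2835 to 3244 CPM in KI sham, with 1 of 6 higher by the test (Syt1, a synaptic vesicle gene). Oligodendrocyte markers summed to 10241 to 14266 CPM in KI 3 Class V, against 16146 to 21743 CPM in KI sham, with 2 of 10 lower (Cnp and Cldn11). Microglial markers summed to 300.01 to 315 CPM in KI 3 Class V, against 358 to 780 CPM in KI sham, with 4 of 8 lower (Aif1, Tmem119, Trem2 and Tyrobp). Astrocyte markers overlapped, at 3994 to 4219 CPM in KI 3 Class V and 3256 to 4264 CPM in KI sham, with 1 of 7 higher (Aqp4). Choroid plexus, oligodendrocyte precursor and blood markers had 0 called, endothelial markers had 1 of 4 lower (Cldn5), and only the blood marker Hba-a2 reached 0 in any library. Still, all 5 choroid plexus markers had a negative log2 change (median −3.22), each at an unadjusted edgeR p under 0.05. They summed to 9.44 to 29.8 CPM in KI 3 Class V, against 15.6 to 959 CPM in KI sham, with KI sham 4 the highest. In bulk tissue, fewer cells of a type and less RNA per cell cannot be told apart, and the part of these shifts in the members' changes was not tested.

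In the KA model the members did not pass the test in either direction. None of the 30 was called, higher or lower, in KA 3 Class V against KA sham (edgeR's quasi-likelihood test; 1 higher and 4 lower at an unadjusted p under 0.05). The background was low too, with 0.172% of all genes tested higher and 0% lower, though 846 genes were higher and 479 lower at an unadjusted p under 0.05. DESeq2 also called 0 members, and limma-voom called Nr1h3 as higher and Hmgcs1 as lower (beside 3.57% of all genes higher and 1.87% lower). Of the log2 changes, 24 were negative and 6 positive, with a median of −0.15 against −0.01 over all genes tested; the members' median was −0.088 without KA 3 Class V 2. In 3 members, Hmgcs1, Mvk and Idi1, every KA 3 Class V library lay below every KA sham (10%, beside 2.7% of all genes), and in 0 every one lay above (beside 2.95% of all genes).

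The mevalonate arm held the members that stood lowest in KA, with a median log2 change of −0.28 and 7 of 8 negative. Hmgcs1 stood at 299, 287 and 272 CPM in KA 3 Class V, against a lowest, median and highest value of 301.0, 351 and 409 CPM in the 7 KA shams. The groups were narrowly separated, and the log2 change of −0.30 ± 0.10 did not pass (edgeR adjusted p = 0.253). Acat2 stood at 33.4, 29.1 and 28.9 CPM in KA 3 Class V, against 32.01, 39.6 and 44.2 CPM as the lowest, median and highest KA sham (log2 change −0.34 ± 0.13, edgeR adjusted p = 0.331). Mvk stood at 29.1, 28.5 and 28.8 CPM in KA 3 Class V, a very narrow range, against 31.02, 33.4 and 37.2 CPM in the KA shams (log2 change −0.24 ± 0.13, edgeR adjusted p = 0.570).

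Idi1 and Fdps had the most negative log2 changes of the members in KA, and the same pair of shams stood far above the rest in both. Idi1 stood at 32.6, 28.2 and 31.02 CPM in KA 3 Class V, against 33.2, 39.2 and 61.9 CPM as the lowest, median and highest KA sham (log2 change −0.51 ± 0.22, edgeR adjusted p = 0.414). KA sham 2 and KA sham 7 were the high ones, at 61.9 and 61.1 CPM, with the other KA shams at 33.2 to 39.7 CPM. Fdps was high in the same libraries, at 153 and 152 CPM, with the other KA shams at 91.2 to 117 CPM (log2 change −0.44 ± 0.20, edgeR adjusted p = 0.473). Ribosomal protein genes were also high there, with a score (mean log2 CPM above each gene's own mean over all libraries) of 0.97 in KA sham 2 and 0.46 in KA sham 7, and of 0.69 in KI sham 1, where Idi1 stood at 56.5 CPM and Fdps at 139 CPM. The score was nearly as high in KA sham 4 (0.44) and KI sham 3 (0.42) as in KA sham 7, yet Idi1 stood at only 39.7 and 36.8 CPM there and Fdps at 117 and 106 CPM. The part of these genes in the KA values was not tested.

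Further down the pathway the KA changes were smaller than their error in most genes. Lss stood at 42.3, 38.6 and 32.8 CPM in KA 3 Class V, against 35.2, 50.8 and 62.1 CPM as the lowest, median and highest KA sham (log2 change −0.36 ± 0.22, edgeR adjusted p = 0.619). Tm7sf2, with the smallest p among the lanosterol to cholesterol genes in KA, stood at 17.6, 21.3 and 15.7 CPM in KA 3 Class V, against 18.96, 22.3 and 28.2 CPM in the KA shams (log2 change −0.32 ± 0.16, edgeR adjusted p = 0.549). Both genes overlapped between groups. Sc5d, the gene that rose most clearly in KI, stood at 70.6, 62.7 and 75.3 CPM in KA 3 Class V, against 69.6, 72.1 and 80.5 CPM in the KA shams (log2 change −0.08 ± 0.08, edgeR adjusted p = 0.800). Hsd17b7 stood at 2.61, 2.41 and 2.37 CPM in KA 3 Class V, against 2.30, 2.85 and 3.38 CPM in the KA shams (−0.22 ± 0.16, 0.665).

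The regulators and export genes in KA included most of the positive log2 changes. Srebf1 stood at 206, 189 and 166 CPM in KA 3 Class V, against 97.3, 136 and 168 CPM as the lowest, median and highest KA sham. Of the 3 KA 3 Class V libraries, 2 lay above all shams and the third just inside their top, and the log2 change of 0.46 ± 0.14 had the smallest p of the members without passing (edgeR adjusted p = 0.191). Abca1 stood at 62.5, 72.0 and 53.2 CPM in KA 3 Class V, against 28.7, 36.9 and 56.2 CPM in the KA shams (log2 change 0.64 ± 0.42, edgeR adjusted p = 0.641). Nr1h3 stood at 6.10, 7.10 and 6.77 CPM in KA 3 Class V, against 4.34, 4.88 and 8.02 CPM in the KA shams, where KA sham 2 was the single high library (log2 change 0.31 ± 0.17, edgeR adjusted p = 0.579). Abcg1, the partner pump of Abca1, had a log2 change of 0.30 ± 0.22 (edgeR adjusted p = 0.676).

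Srebf2 and Insig1 overlapped between the KA groups. Srebf2 stood at 278, 231 and 289 CPM in KA 3 Class V, against 204, 265 and 391 CPM in the KA shams, which spanned nearly the whole range of the series (log2 change −0.06 ± 0.19, edgeR adjusted p = 0.947). Insig1 stood at 114, 75.3 and 97.4 CPM in KA 3 Class V, against 90.7, 115 and 122 CPM in the KA shams (−0.20 ± 0.13, 0.637). Stard4 was split within KA 3 Class V, at 19.2, 11.8 and 11.7 CPM, against 14.002, 17.8 and 21.2 CPM in the KA shams (log2 change −0.31 ± 0.19, edgeR adjusted p = 0.619). Cyp46a1 stood at 226, 204 and 222 CPM in KA 3 Class V, against 222, 245 and 289 CPM in the KA shams (−0.21 ± 0.15, 0.669).

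**Figure D3:**
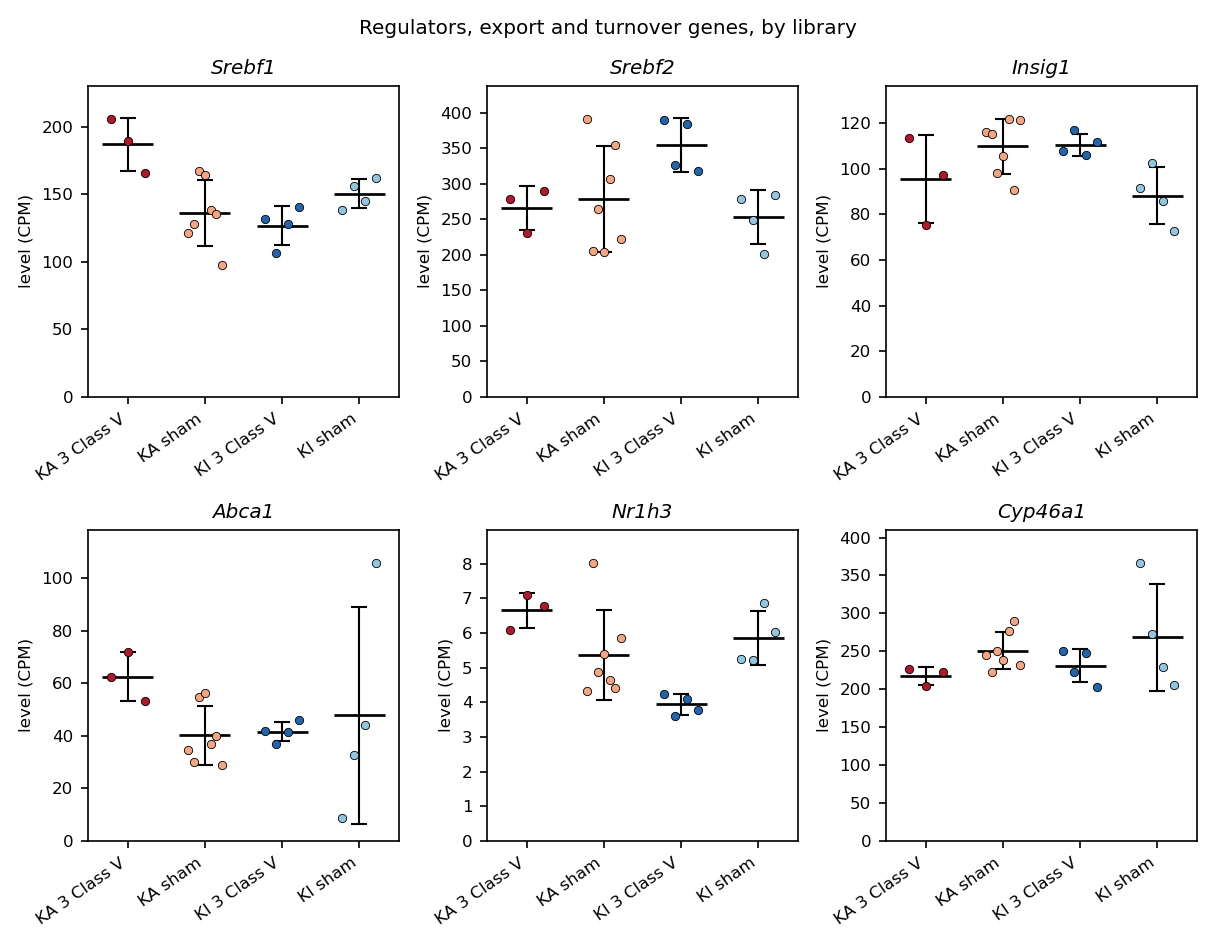
Level in CPM (y axis, from 0) of Srebf1, Srebf2, Insig1, Abca1, Nr1h3 and Cyp46a1 in each library (points), by group (x axis), with the mean (line) and SD (bar). The Abca1 panel shows KI sham libraries from 8.72 to 106 CPM, and the Nr1h3 panel shows every KI 3 Class V library below every KI sham.

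Microglial markers summed to 654 to 943 CPM in KA 3 Class V, against 318 to 745 CPM in KA sham, and oligodendrocyte markers to 14158 to 14691 CPM in KA 3 Class V, against 12862 to 35772 CPM in KA sham. Of the 44 markers tested, 0 passed in KA, with all 8 microglial markers positive and all 10 oligodendrocyte markers negative. Liver X receptor genes and Abca1 are active in microglia, and myelinating cells are heavy users of sterol synthesis; the part of these markers in the KA values was not tested.

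The change in KA was set against the change in KI by testing their difference, since each model has its own shams. The difference was negative and past the test for 5 members: Stard4 (−1.04 ± 0.27, edgeR adjusted p = 0.0393), Hsd17b7 (−0.88 ± 0.23, 0.0384), Hmgcs1 (−0.76 ± 0.14, 0.0139), Acat2 (−0.72 ± 0.18, 0.0380) and Sc5d (−0.70 ± 0.12, 0.0114), all as KA log2 change minus KI log2 change. The 5 are 16.7% of the members, beside 0.652% of all genes tested with a negative difference past the test and 3.15% with a positive one. No member had a positive difference past the test by edgeR, with 2 at an unadjusted p under 0.05. DESeq2 called 2 positive (beside 5.79% of all genes) and limma-voom 3 (beside 16.7%). On the negative side DESeq2 called 5 (beside 2.59% of all genes) and limma-voom 11 (beside 19.03%). In all, 22 differences were negative and 8 positive, with a median of −0.33, against 0.01 over all genes. In each of the 5 the KA change was negative and the KI change positive, the KA one being smaller in size and not called on its own. A gap between the shams of the models also enters this difference. The log2 change of KA sham against KI sham was 0.60 for Stard4, 0.41 for Acat2, 0.40 for Sc5d, 0.36 for Hmgcs1 and 0.22 for Hsd17b7. None of these gaps was called by edgeR, and their part in the differences was not tested.

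The roles differed in the sign of this difference. The medians were −0.49 for farnesyl diphosphate to lanosterol, −0.49 for sterol sensing, −0.39 for lanosterol to cholesterol and −0.29 for the mevalonate arm, and 0.39 for export and turnover, where all 5 differences were positive. The log2 change of KA sham against KI sham had the opposite signs by role. Its medians were 0.15, 0.16, 0.18 and 0.12 in the same order, and −0.13 for export and turnover, with all 5 negative. That gap enters these differences, and its part in the split by role was not tested. Among the positive ones, Nr1h3 had 0.89 ± 0.25 (edgeR adjusted p = 0.0543) and Srebf1, the only sensing gene on that side, 0.71 ± 0.20 (0.0623). Abca1 had 0.85 ± 0.61 (0.454), Nr1h2 0.39 ± 0.19 (0.252) and Abcg1 0.21 ± 0.32 (0.755). The Abca1 difference ran from 0.13 without KI sham 4 to 1.19 without KI sham 1, and it was −0.35 without KI sham 3 and KI sham 4. Cyp46a1 had nearly the same change in each model, with a difference of 0.01 ± 0.21 (0.986; −0.18 to 0.14 over libraries left out in turn), and so did Mvk, at −0.00 ± 0.18 (0.995). The standard error of the Cyp46a1 difference is about as large as the change in either model, so a difference of that size was not detectable.

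The Sc5d and Hmgcs1 differences were the steadier ones. Leaving out any 1 of the 18 libraries kept Sc5d called (highest edgeR adjusted p = 0.0430), and Hmgcs1 was lost once, without KA 3 Class V 3 (0.0547). Acat2, Hsd17b7 and Stard4 were lost in 14, 11 and 12 of the 18, and without KA 3 Class V 3 Sc5d was the only member called. Without the libraries rich in ribosomal RNA-like reads, Acat2, Hmgcs1 and Sc5d were called, and Hsd17b7 and Stard4 were not (edgeR adjusted p = 0.0599 and 0.0548). Of the 8 microglial markers, 5 had a positive difference past the test (62.5%, beside 3.15% of all genes). All 6 neuronal markers had a negative difference without passing. In KA sham against KI sham, all 8 microglial markers were lower without passing (median log2 change −0.45). Of the neuronal markers, 4 were higher there and 2 lower. These gaps enter the markers' differences, and the part of the markers in the members' differences was not tested.

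**Figure D4:**
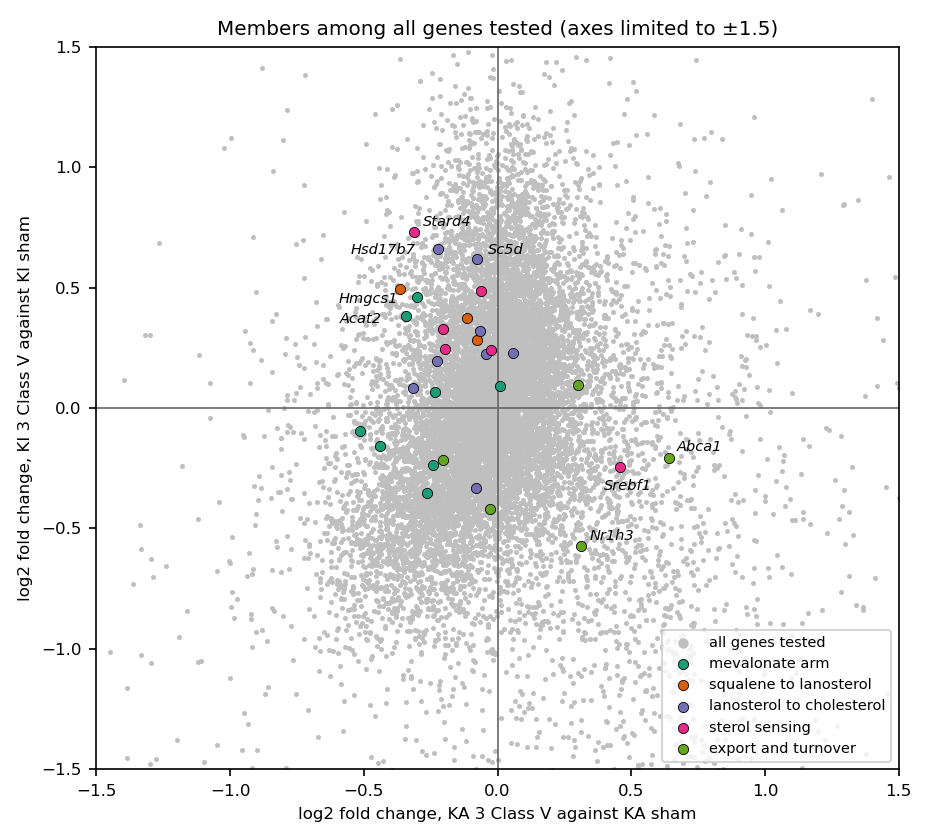
Log2 change in KA 3 Class V against KA sham (x axis) and in KI 3 Class V against KI sham (y axis) for all genes tested (grey) and the 30 members (coloured by role), with axes limited to ±1.5. The 5 members with a called difference lie in the upper left, and Srebf1, Abca1 and Nr1h3 in the lower right.

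The shams of the models also differed for some of these genes. That enters any comparison of levels across models, and the difference between the changes as well. None of the 30 passed edgeR's test of KA sham against KI sham, beside 0% of all genes higher and 0.0075% lower. At an unadjusted p under 0.05, 7 were higher and 0 lower. DESeq2 called 2 higher (beside 0.03% of all genes) and limma-voom 1 higher (beside 2.35%). Still, 21 of 30 log2 changes were positive, with a median of 0.13, against −0.01 over all genes tested. That median rested on few libraries, at 0.053 without KI sham 3, 0.063 without KI sham 4, 0.066 without KA sham 7 and 0.083 without KA sham 2, and it was −0.015 without KI sham 3 and KI sham 4 together. Sc5d was higher in every KA sham (69.6 to 80.5 CPM) than in any KI sham (51.1 to 58.9 CPM), with a log2 change of 0.40 ± 0.08 (edgeR adjusted p = 0.138), and so was Stard4 (14.002 to 21.2 CPM in KA sham, 7.19 to 13.7 CPM in KI sham; 0.60 ± 0.17, 0.564). Sc5d and Stard4 were the 2 members whose sham groups did not overlap (6.67%), and the same share over all genes was not computed. The KA shams thus lay between the KI 3 Class V and KI sham libraries for Sc5d. For Stard4 the KI 3 Class V libraries (18.4 to 20.2 CPM) lay within the range of the KA shams. So they did for Acat2 (33.4 to 41.8 CPM, against 32.01 to 44.2 CPM in KA sham). For Hsd17b7 they lay above the KA shams (3.47 to 4.28 CPM, against 2.30 to 3.38 CPM). Hmgcs1 stood at 301.0 to 409 CPM in KA sham and 254 to 301.0 CPM in KI sham (0.36 ± 0.09, 0.564). Its KI 3 Class V libraries stood at 357 to 419 CPM, and only KI 3 Class V 2 lay above the KA shams.

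The low end of most members' levels was held by the KI shams. Of the 30 members, 24 had their lowest level of all 18 libraries in a KI sham (80%), against 40.2% of all genes tested. By library, KI sham 4 held the lowest level of 10 members (33.3%, beside 11.1% of all genes), KI sham 3 of 7 (23.3%, beside 3.05%) and KI sham 1 of 7 (23.3%, beside 24.6%). The count for KI sham 1 is thus at the share of all genes. Its count at the other end was close to it too, with the highest level of 7 members (23.3%, beside 19.4% of all genes), namely Mvk, Pmvk, Mvd, Msmo1, Ebp, Nr1h2 and Cyp46a1. KI 3 Class V held the highest level of 7 members (23.3%, beside 20.5%) and KA sham of 13 (43.3%, beside 33% of all genes).

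**Figure D5:**
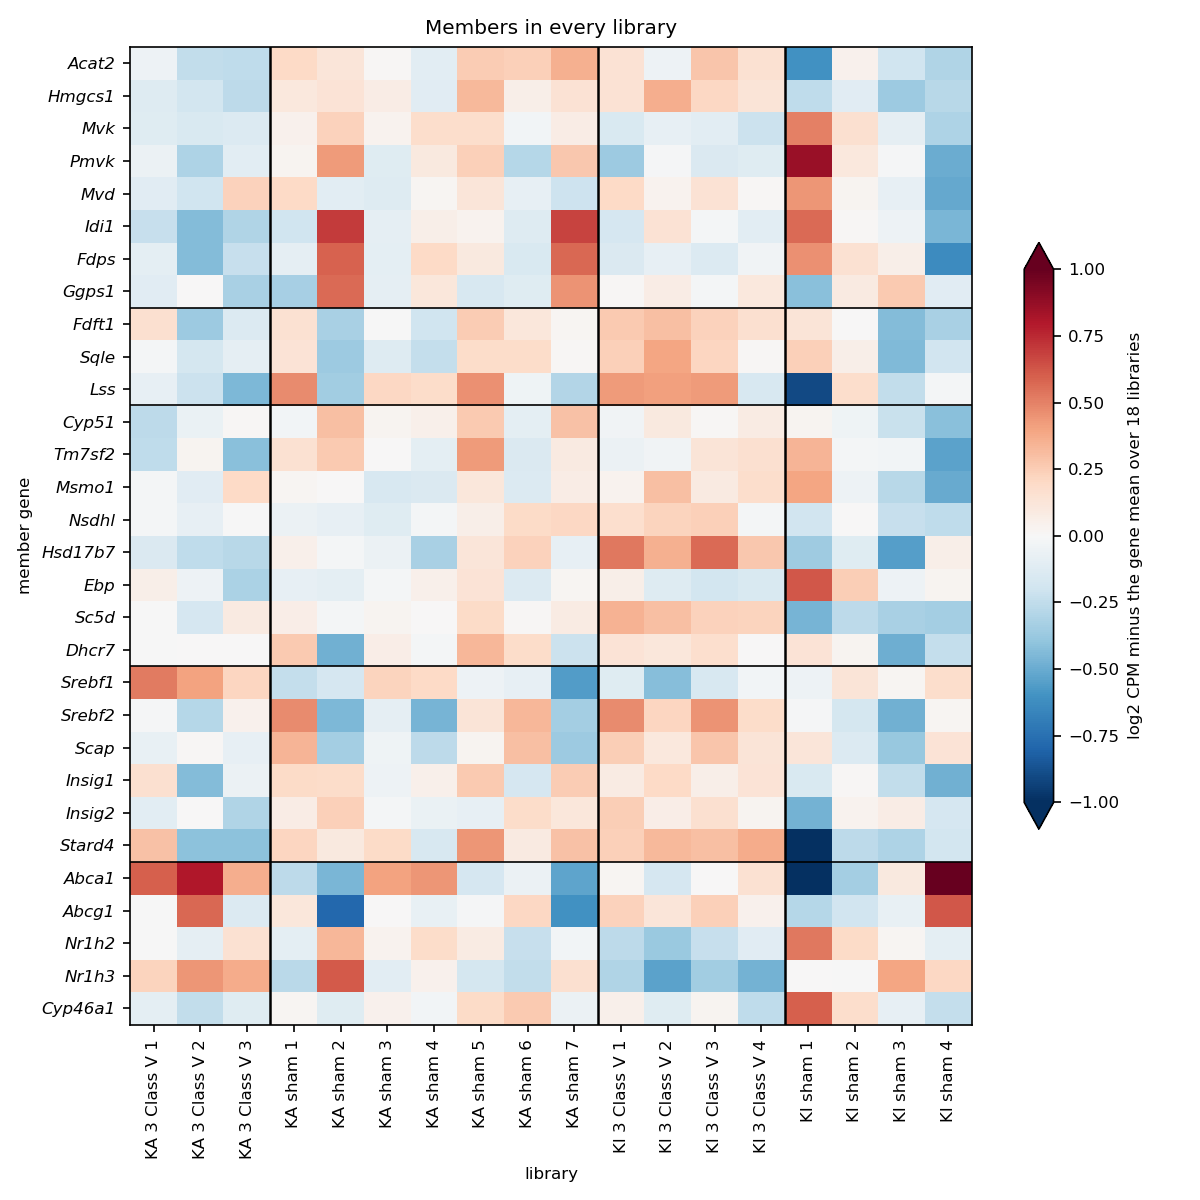
Log2 CPM of each member (rows, by role) minus its mean over the 18 libraries (columns, by group), in colour from −1 (blue) to 1 (red). KI 3 Class V is red for most synthesis genes from Fdft1 down to Dhcr7, KI sham 3 and KI sham 4 are blue for most, and KI sham 1 mixes strong red (Pmvk, Ebp, Cyp46a1) with strong blue (Lss, Stard4, Abca1).

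The groups also differed in how much the members varied. The coefficient of variation over libraries had a median over the 30 members of 10.1% in KA 3 Class V, 13.3% in KA sham, 7.53% in KI 3 Class V and 19.7% in KI sham. The same was not computed over all genes tested, so the order of the groups may not be particular to the members. The most variable members were Stard4 in KA 3 Class V (30.2%), Idi1 in KA sham (28.3%), Lss in KI 3 Class V (18.1%) and Abca1 in KI sham (86.3%). Sc5d was the least variable member in both sham groups, at 4.93% in KA sham and 5.84% in KI sham. Dhcr7 was nearly constant in KA 3 Class V, at 38.5, 38.6 and 38.6 CPM, while the KA shams ran from 27.6 to 48.6 CPM.

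Of 37 tested genes of neighbouring pathways, 1 was called higher in KI (2.7%) and 2 lower (5.41%), beside the 4.74% and 5.25% of all genes. Of the 12 fatty acid genes driven by SREBP, all tested, Acly, which makes cytosolic acetyl-CoA for both lipid classes, rose in KI (log2 change 0.51 ± 0.14, edgeR adjusted p = 0.0381), at 289.5, 269.6, 290.2 and 272 CPM in KI 3 Class V, against 157, 202, 205 and 225 CPM in KI sham. All 12 had a positive log2 change in KI, with a median of 0.37, and Scd, the stearoyl-CoA desaturase, was next at 0.61 ± 0.20 (0.0544). KI sham 1 was far below the other KI shams in several of them. It stood at 37.9 CPM in Scd (others 82.7 to 91.3 CPM), 20.3 in Acaca (51.4 to 72.2) and 17.4 in Elovl5 (49.0 to 55.2). It was not the lowest KI sham in Acss2, Fasn, Fads1 or Me1. How far the median rests on that library was not tested. In KA 0 of 12 passed, with Elovl6, a fatty acid elongase, at −0.39 ± 0.16 (0.396). All 12 differences, KA change minus KI change, were negative and 0 passed, Elovl6 being nearest at −0.83 ± 0.23 (0.0580). The 12 genes were also all higher in KA sham than in KI sham, with a median log2 change of 0.27. By edgeR 0 of these gaps passed, with 4 at an unadjusted p under 0.05. The gap between the shams enters the differences, and its part was not tested.

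Among 17 tested genes of sterol handling, Npc2, the lysosomal protein that hands cholesterol to the membrane, fell in KI (log2 change −1.19 ± 0.29, edgeR adjusted p = 0.0292). It stood at 122, 138, 127 and 142 CPM in KI 3 Class V, against 271, 273, 304 and 356 CPM in KI sham. In KA, 0 of the 17 passed; Npc2 stood at 365, 465 and 397 CPM in KA 3 Class V, against 139, 173 and 374 CPM as the lowest, median and highest KA sham (0.90 ± 0.27, 0.172). The difference between the models passed for Npc2 (2.09 ± 0.39, 0.0139) and for Ch25h, the cholesterol hydroxylase of activated macrophages (2.49 ± 0.62, 0.0339). They are 11.8% of the 17, beside 3.15% of all genes with a positive difference. Ch25h levels were low, and KI sham 3 stood at 15.1 CPM, against 2.56, 4.37 and 5.69 CPM in the other KI shams. The KA shams stood at 1.94 to 5.87 CPM in Ch25h. In Npc2 the log2 change of KA sham against KI sham was −0.46 (edgeR adjusted p = 0.569). Such gaps between the shams enter the differences of Npc2 and Ch25h, and their part was not tested. Both genes are expressed in microglia, and the part of microglial markers in their differences was not tested. Of 8 tested genes that use isoprenoids, Fnta, the shared subunit of protein prenyltransferases, fell in KI (−0.54 ± 0.15, 0.0415), and 0 passed in KA.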

How the data were processed

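The authors deposited 1 table of raw read counts, by gene symbol, for 18 libraries. The submitters' processing notes name rn6 as the genome build and list FastQC, Trimmomatic, HISAT2, featureCounts and DESeq2; tool versions, annotation, strand setting and multimapping rules are not given there, so reads shared with pseudogenes or antisense genes may be split or lost. Per the labels, reads were single-end and of 110 bases. Each column matched 1 library name in the labels, and titles gave the groups. Replicates were compared pairwise (36 pairs) and none agreed within counting noise (lowest chi-square per degree of freedom 20.4), so each was kept.

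The main test was edgeR 4.0.16 in R 4.3.3, with filterByExpr (13338 genes), TMM factors, group means and the robust quasi-likelihood F test. It used 1 fit of all 18 libraries (14 residual degrees of freedom), two-sided, with Benjamini-Hochberg adjusted p and a threshold of 0.05. The standard error was taken as |log2 change| over the square root of the F statistic. The procedure was tested on simulated data. Library scores used log2 CPM with a prior count of 2. Promoter windows come from RefSeq's GRCr8 table, not the authors' build.

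The members, lists and tests were chosen with earlier results of these data known. Values in full are given for members called in any comparison, for the member of each role with the smallest p in each model and for Srebf2, Insig1, Abca1 and Cyp46a1; other values were added after they were seen. Alternatives were DESeq2 1.42.0, voom with quality weights (limma 3.58.1), RLE and upper quartile factors, no filter, at least 1 CPM in 4 libraries, separate fits of the models, a replicate block, a covariate from 88 ribosomal protein genes and libraries left out.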

Additional observations from a re-analysis of the deposited data

Results flagged for a closer look

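Within groups of 4 or more libraries, 90 combinations of member and group were looked at and 3 held a library far from the others by Dixon's criterion; chance alone flags about 1 in 20 groups. Lss stood at 40.1 CPM in KI 3 Class V 4, against 59.5 to 60.2 CPM in the other KI 3 Class V libraries. Stard4 stood at 7.19 CPM in KI sham 1, against 12.7 to 13.7 CPM in the other KI shams. Nr1h3 stood at 8.02 CPM in KA sham 2, against 4.34 to 5.87 CPM in the other KA shams.

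The change in KA and the change in KI differed by edgeR's test of the difference itself for 5 members, as KA log2 change minus KI log2 change. The differences were −0.72 for Acat2, −0.76 for Hmgcs1, −0.88 for Hsd17b7, −0.70 for Sc5d and −1.04 for Stard4, all at an adjusted p under 0.05.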

How the results depend on the processing

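Same-numbered libraries did not deviate alike: the correlation of their deviations from the group means ran from −0.17 to 0.0091 over 7 pairs. The groups are small and some libraries stand apart, so these correlations cannot exclude a pairing or a shared batch. With the replicate block, 0 members and 0 genes were called in KI, 0 members in the difference between models and 3 genes in KA. The KI count of members called (4) became 8 with DESeq2, 17 with limma-voom, 1 with the ribosomal protein covariate, 9 without KI sham 3 and KI sham 4, 1 without the libraries rich in ribosomal RNA-like reads and 2 with each model fitted alone (1 to 9 over libraries left out in turn). The 9 without KI sham 3 and KI sham 4 were 4 higher and 5 lower, beside 14.6% and 13.3% of all genes. The difference count (5) became 14 with limma-voom, 11 with the covariate and 3 without the rRNA-rich libraries (1 to 7). With limma-voom 11 were negative and 3 positive, beside 19.03% and 16.7% of all genes. With the covariate 9 were negative and 2 positive, beside 2.98% and 4.7% of all genes. Without the rRNA-rich libraries all 3 were negative, beside 0.203% of all genes. The KA count (0) became 2 with limma-voom, and the sham count (0) became 2 with DESeq2 and 1 with limma-voom, with the covariate and without KI sham 3 and KI sham 4. Genes called in KA (23) numbered 254 with DESeq2, 725 with limma-voom, 205 with the covariate, 69 without KI sham 3 and 4, and 153 without KI sham 1 and 4 (9 to 110). Genes called in KI (1332) numbered 2965, 7355, 105, 3740 and 2156 in the same order, 17 without the rRNA-rich libraries and 759 with each model alone (9 to 4297). Upper quartile factors called 333 genes higher and 978 lower in KI, against 632 and 700. The KA median of the members ran from −0.19 to −0.088 over libraries left out, and the KI median was 0.10 without KI sham 3 and 4. Signs turned for Tm7sf2 in KI (−0.14 without KI sham 3 and 4; −0.084 to 0.23), for Abca1 in KI (0.17 with limma-voom, 0.23 with the block, 0.98 without KI sham 3 and 4, 0.072 without KI sham 1 and 4; −0.55 to 0.50), for Abca1 in the difference (−0.35 without KI sham 3 and 4), for Cyp46a1 in the difference (−0.15 with limma-voom, −0.056 without KI sham 1 and 4; −0.18 to 0.14) and for Srebf2 in KA (−0.14 to 0.034); the cause was not tested. The sets without KI sham 1 and 4 were chosen after seeing the data, and fitting each model alone gives no comparison across models.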
